A study of Homo sapiens with 4 samples.

Results

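The expression of 10 long non-coding RNAs (lncRNAs) named in the cancer literature was compared between the breast cancer cell lines MDA-MB-231 and LM2-4175. The lncRNAs were UCA1, SFTA1P, MALAT1, NEAT1, H19, HOTAIR, PVT1, GAS5, TUG1 and MIAT, and each was found by its gene symbol as 1 row among the 57815 genes of the deposited RNA-Seq table. MDA-MB-231 is a triple-negative human breast cancer cell line, and LM2-4175 is its derivative selected in mice for spread to the lung. Both lines were untreated and cultured in the same medium with serum, and 2 libraries were sequenced per line, 4 in all. The table holds 1 FPKM (a fragment count divided by transcript length and by the mapped fragments of the library) per gene and cell line, in which both libraries are combined, with a lower and an upper bound. No spread between libraries could therefore be calculated, each line stands for itself alone, and the values compare pooled libraries rather than replicates. UCA1, SFTA1P and the other members were chosen with these same FPKM values known, so their levels are given as a description without a test.

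Long non-coding RNAs are transcripts that are not translated into long proteins. MALAT1 and NEAT1 stay in the nucleus, where NEAT1 is the scaffold of paraspeckles, bodies that hold RNA-binding proteins. HOTAIR has been described as a partner of the histone-modifying complexes PRC2 and LSD1, GAS5 is a host gene of small nucleolar RNAs, H19 is an imprinted transcript, and PVT1 lies beside the MYC oncogene. UCA1 was first described in bladder cancer, and SFTA1P takes its name from a surfactant-associated pseudogene of the lung.

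Of the 10 lncRNAs, UCA1 was almost undetected in LM2-4175, NEAT1 and its neighbour MALAT1 were lower, and SFTA1P and GAS5 had higher FPKM with bounds that overlapped. PVT1, TUG1 and H19 had overlapping bounds and differed by less than 1.5-fold, and HOTAIR and MIAT were close to 0 in both lines. A gene was called where it had a mean of at least 0.5 FPKM, a change of at least 1.5-fold on the scale of FPKM + 1, and bounds that did not overlap. By this rule 8 of the 10 lncRNAs could be tested, of which 3 were called lower and 0 higher. Over all 13911 genes tested, 9.27% were called in either direction and 4.61% were called lower, and 7.38% of the 1043 lncRNA genes tested were called. These shares stand beside the count only as background, because the members were chosen on the same contrast. They are also the background for the counts called among neighbours and gene lists below.

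**Figure D1:**
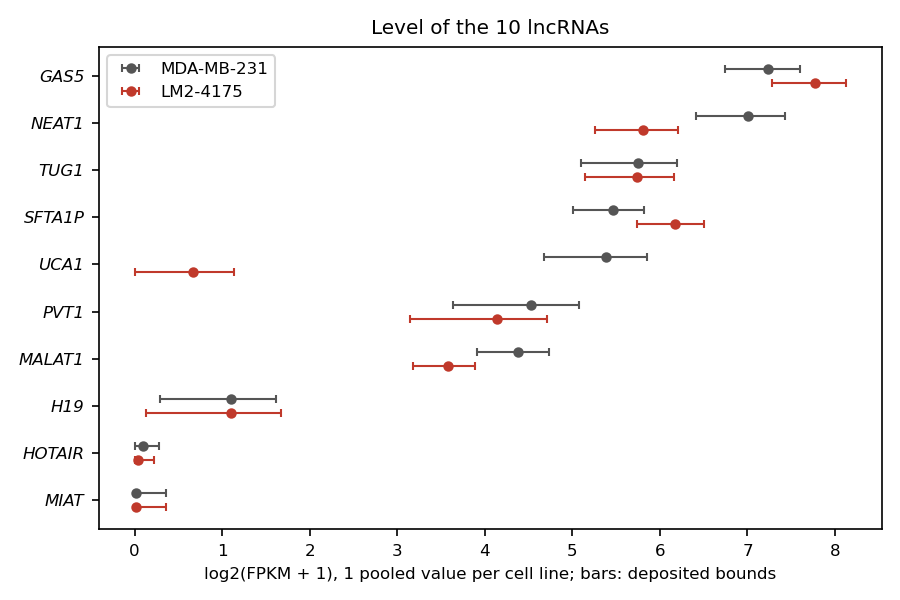
Level of the 10 lncRNAs in MDA-MB-231 (grey) and LM2-4175 (red) on the log2(FPKM + 1) scale. Points are the single pooled value of each cell line, and bars are the deposited lower and upper bounds. The bars of UCA1, NEAT1 and MALAT1 do not overlap, and those of the other 7 lncRNAs do.

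NEAT1 and MALAT1 lie next to each other on chromosome 11. MALAT1 and the long form of NEAT1 are known for ends that are not made by ordinary polyadenylation. At these ends, U-rich stretches fold with an A-rich stretch into a triple helix. The 3′ ends of both genes are shown because they are the called members that share sequence at a functional element. In a local alignment of the last 700 bases up to the end of each gene in the deposited table, the best match was an identical stretch of 16 bases, of which 9 were T, and it is marked in capitals.
MALAT1 3′ end: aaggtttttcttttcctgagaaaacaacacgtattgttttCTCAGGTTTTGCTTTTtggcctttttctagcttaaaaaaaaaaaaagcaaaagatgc
NEAT1 3′ end: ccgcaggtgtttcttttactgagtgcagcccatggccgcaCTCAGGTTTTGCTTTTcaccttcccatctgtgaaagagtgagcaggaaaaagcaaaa
The MALAT1 piece is chr11:65273496-65273592 and the NEAT1 piece chr11:65212915-65213011, both on the plus strand of GRCh37. The shared stretch was followed by 389 bases up to the end of MALAT1 in the table, and by 41 bases up to that of NEAT1. GENCODE 44, from which the gene positions in the text are taken, ends MALAT1 further downstream, 1993 bases after the stretch, and NEAT1 at the same base as the table. In the 41 bases printed after the shared stretch, the longest run of A was 13 bases in MALAT1 and 5 bases in NEAT1. Among the transcripts of 64476 genes, those of 2 genes held this stretch, namely MALAT1 and NEAT1.

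For MALAT1 and TUG1, promoter windows of 300 bases from RefSeq are shown as a pair of a lncRNA that was called lower and one with nearly the same level in both lines. Capitals mark the motifs searched on both strands, which were the TATA box spelled TATAAA, the CCAAT box spelled CCAAT, the E-box spelled CACGTG and the AP-1 site spelled TGANTCA.
MALAT1 promoter: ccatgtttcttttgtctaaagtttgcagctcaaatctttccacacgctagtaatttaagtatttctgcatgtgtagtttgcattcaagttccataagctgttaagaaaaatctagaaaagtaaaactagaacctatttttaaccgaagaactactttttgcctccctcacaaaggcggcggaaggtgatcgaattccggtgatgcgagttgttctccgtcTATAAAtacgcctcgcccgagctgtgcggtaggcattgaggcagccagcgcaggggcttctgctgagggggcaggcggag
TUG1 promoter: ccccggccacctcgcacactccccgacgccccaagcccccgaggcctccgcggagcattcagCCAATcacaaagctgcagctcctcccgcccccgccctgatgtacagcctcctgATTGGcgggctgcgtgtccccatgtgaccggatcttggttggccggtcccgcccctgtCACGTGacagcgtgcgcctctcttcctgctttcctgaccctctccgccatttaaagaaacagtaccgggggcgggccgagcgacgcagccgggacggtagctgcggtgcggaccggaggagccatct
The windows were taken from RefSeq and located on GRCh37 by exact match, at chr11:65266266-65266565 for MALAT1 and at chr22:31365001-31365300 for TUG1, both on the plus strand. The MALAT1 window held 1 TATAAA, which occurred in 11.5% of 35116 promoters. The TUG1 window held 2 CCAAT boxes, a motif of 34.6% of promoters, and 1 CACGTG, a motif of 7.26% of promoters. TGANTCA occurred in 7.71% of promoters and in neither of these windows. A further MALAT1 window in RefSeq, at chr11:65264959-65265258 over the gene start in GENCODE 44, held 0 matches to the 4 motifs and is not printed. The window shown lies inside the MALAT1 gene of GENCODE 44. These matches describe letters only.

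UCA1 (ENSG00000214049) is at chr19:15939016-15947138 on the plus strand of GRCh37. Its level was 40.7 FPKM in MDA-MB-231 (bounds 24.6 and 56.7) and 0.593 FPKM in LM2-4175 (bounds 0 and 1.19). The bounds were thus far apart, with 23.4 FPKM between them. The log2 change of FPKM + 1 was -4.71, and the ratio of the FPKM values was 68.6-fold lower in LM2-4175. Even the nearest bounds differed by 20.7-fold. In RNA of whole cultures, fewer cells with UCA1 and less UCA1 per cell cannot be told apart. UCA1 ranked 16th from the top among lncRNA genes above 0 in MDA-MB-231, with 99.7% of them below it, and 937th in LM2-4175, with 83.2% below it. Its decrease was the 1st in size among the 1043 lncRNA genes tested and the 5th among all genes tested. Of 94 lncRNA genes tested with at least 10 FPKM in MDA-MB-231, UCA1 was the 1 that fell under 1 FPKM in LM2-4175, and 14 genes of any type did so. The cut-offs of 10 and 1 FPKM were chosen with the UCA1 values known, so these counts are a description only.

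Exons of UCA1 overlap by 26.1% with genes on the opposite strand, of which LINC01764 (AC004510.3 in the table) was listed at 0.285 FPKM in MDA-MB-231 and 0.00109 FPKM in LM2-4175. As strand is not stated to have been used in counting, the reads of overlapping genes cannot be told apart. Around UCA1, no gene tested was called. Of 9 genes tested within 500 kb, 0 were called, compared with 9.27% of all genes tested, so the count does not set them apart. Their log2 changes ranged from -0.28 to 0.29 with a median of -0.02. The nearest tested upstream was WIZ, 378 kb away, at 14.5 FPKM in MDA-MB-231 and 12.7 FPKM in LM2-4175. Downstream it was TPM4, which encodes a tropomyosin, 231 kb away, at 594 and 601 FPKM. The window held 52 genes, so most were not tested, and genes nearer to UCA1 than these were not compared. The lncRNA genes nearest to UCA1 in the values of both lines, by distance on the log2(FPKM + 1) scale over these 2 values, were RP11-527H14.3, CTC-246B18.10 and RP11-879F14.2. They were still 1.73, 1.85 and 1.90 log2 units away. RP11-527H14.3 went from 15.1 to 2.33 FPKM and RP11-879F14.2 from 22.5 to 4.22 FPKM, and both were called lower. CTC-246B18.10 was listed at 12.01 and 1.73 FPKM with overlapping bounds.

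**Figure D2:**
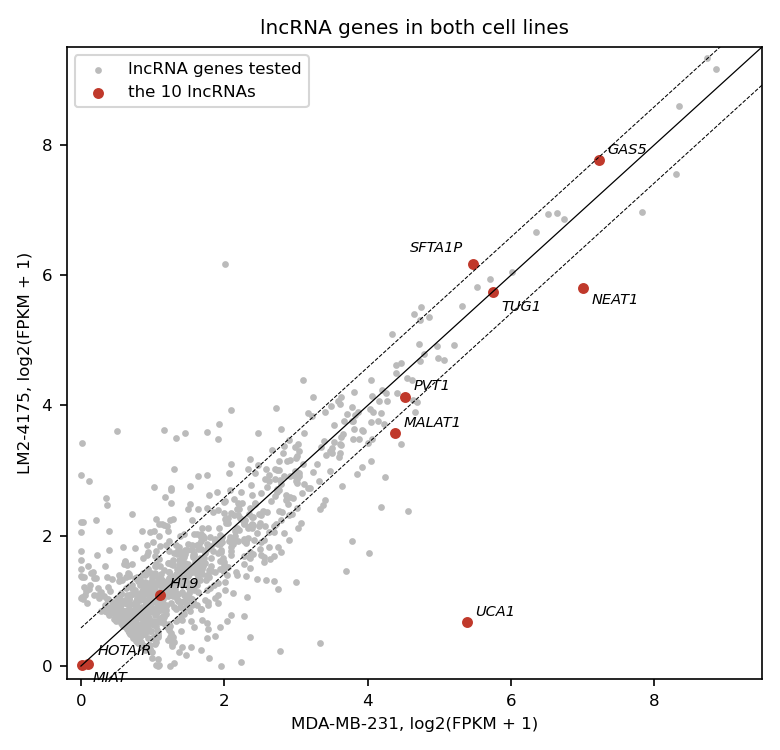
FPKM of lncRNA genes in MDA-MB-231 (x axis) and LM2-4175 (y axis), both as log2(FPKM + 1). Grey points are the 1043 lncRNA genes tested, red points the 10 lncRNAs, the solid line equal levels and the dashed lines 1.5-fold changes. UCA1 lies far below the line at 40.7 and 0.593 FPKM, whereas TUG1 and H19 lie on it.

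SFTA1P (ENSG00000225383) is at chr10:10826400-10837010 on the minus strand and had no exon overlap with another gene. It was among the higher lncRNAs of both lines, at 43.2 FPKM in MDA-MB-231 (bounds 31.2 and 55.3) and 71.0 FPKM in LM2-4175 (bounds 52.2 and 89.7). The upper bound in MDA-MB-231 thus lay 3.03 FPKM above the lower bound in LM2-4175, and SFTA1P was not called. The ratio of LM2-4175 to MDA-MB-231 was 1.64, and the bounds allow ratios from 0.945 to 2.88. The log2 change was 0.70. When both columns were scaled to TPM (each column scaled to the same sum over all genes), the log2 change was 0.79 and SFTA1P was called higher. SFTA1P moved from 15th to 12th among lncRNA genes, and from 4th to 2nd among the 10 lncRNAs. In MDA-MB-231 it was 1.06 times as high as UCA1, and in LM2-4175 120 times. The lower bound of UCA1 in LM2-4175 was 0, so the bounds set no upper limit on the second ratio.

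The 2 genes tested within 500 kb of SFTA1P both had higher FPKM in LM2-4175. CELF2, which encodes an RNA-binding regulator of splicing, starts 3.35 kb upstream in GENCODE 44, was called higher, and went from 5.54 FPKM (bounds 3.81 and 7.27) to 12.3 FPKM (bounds 8.81 and 15.9). The processed pseudogene ORMDL1P1 (ENSG00000228997) on the downstream side was listed at 0.551 and 1.05 FPKM with overlapping bounds. The lncRNA genes with levels most like those of SFTA1P were SNHG6, DANCR and FGD5-AS1, at distances of 0.33, 0.36 and 0.56 log2 units. Each of these had overlapping bounds, with log2 changes of 0.24, 0.29 and 0.04.

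Because SFTA1P is named for lung surfactant, 22 genes of lung epithelium were examined. Of these, 6 were listed at 0 in both lines, among them SFTPC and SCGB1A1, defining markers of alveolar type II and club cells. Of the other genes, 7 had higher and 9 lower FPKM in LM2-4175, and the median log2 change over all 22 was 0. The summed level was 18.4 FPKM in MDA-MB-231 and 27.6 FPKM in LM2-4175, and without FOXA2 it was 13.4 and 13.2 FPKM. The sum without FOXA2, the gene called higher, still holds GATA6, the gene called lower. It therefore does not show that the remaining genes were equal. NKX2-1, the transcription factor of lung identity, was listed at 0.565 and 0.0855 FPKM and SFTPB, a surfactant protein gene, at 0.158 and 0.00281 FPKM. Both were too low to be tested and were named after their values were seen. Other genes of the list went the other way. FOXA1, also too low to be tested, was listed at 0.0871 and 0.440 FPKM, and LAMP3, tested and not called, at 0.705 and 1.87 FPKM. Of 5 genes tested, 4 had higher FPKM in LM2-4175, 1 was called higher and 1 lower, and their median log2 change was 0.75. FOXA2, a forkhead transcription factor, went from 5.03 to 14.5 FPKM and was called higher, and the zinc finger factor GATA6 went from 6.001 to 2.27 FPKM and was called lower. ABCA3, a lipid transporter of surfactant, was listed at 4.06 and 7.63 FPKM and was not called. How far these genes bear on SFTA1P was not tested.

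NEAT1 (ENSG00000245532) is at chr11:65190245-65213011 on the plus strand. Its level was 127 FPKM in MDA-MB-231 (bounds 84.0 and 171) and 55.0 FPKM in LM2-4175 (bounds 37.3 and 72.7). The gap between the bounds was 11.3 FPKM, the log2 change was -1.20 and the ratio was 2.31-fold lower in LM2-4175. Within the bounds the ratio of LM2-4175 to MDA-MB-231 could lie between 0.219 and 0.866. NEAT1 was 7th among lncRNA genes in MDA-MB-231 and 16th in LM2-4175, and its decrease was the 31st in size among the lncRNA genes tested. The single value per line does not tell the long form of NEAT1, whose end is printed above, from other forms.

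MALAT1 (ENSG00000251562), at chr11:65265111-65275544 and 52.1 kb downstream of NEAT1, was also called lower, but closely. It was at 19.9 FPKM in MDA-MB-231 (bounds 14.1 and 25.6) and 10.95 FPKM in LM2-4175 (bounds 8.07 and 13.8), so that 0.233 FPKM separated the bounds. The log2 change was -0.80 and the ratio 1.81-fold lower. With TPM, or with the median ratio of the genes tested set to 0, the bounds of MALAT1 overlapped and it was not called, at log2 changes of -0.75 in both cases. MALAT1 shares 83.7% of its exon bases with TALAM1 and AP000769.7 on the opposite strand, and AP000769.7 was listed at 0 in both lines. NEAT1 was 6.41 times as high as MALAT1 in MDA-MB-231 and 5.02 times in LM2-4175. Whether RNA was selected on poly(A) tails is not stated. For ends not made by ordinary polyadenylation, such selection may lower the level, so the levels, ranks and ratios of these 2 genes carry that limit.

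Among 47 genes tested within 500 kb of MALAT1, 36 had lower FPKM in LM2-4175, NEAT1 among them. Over all 13911 genes tested, 7585 had lower FPKM. The median log2 change of the 47 genes was -0.23, compared with -0.04 over all genes tested. Besides NEAT1, SAC3D1 was called lower there, at 24.0 and 12.5 FPKM. AP000769.1, the nearest gene tested upstream of MALAT1, lies between MALAT1 and NEAT1 and was at 1.84 and 2.62 FPKM. On the upstream side of NEAT1, FRMD8 was at 10.97 and 9.55 FPKM. The bounds of both genes overlapped between the lines.

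Genes of paraspeckle proteins, the partners of NEAT1, were examined next. All 20 paraspeckle protein genes examined were tested and 0 were called, compared with 9.27% of all genes tested. The log2 changes of the 20 genes ranged from -0.26 to 0.31 with a median of -0.06. Among the highest were HNRNPA1 at 1011 and 1073 FPKM and HNRNPK at 446 and 403 FPKM, in MDA-MB-231 and LM2-4175 respectively.

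**Figure D3:**
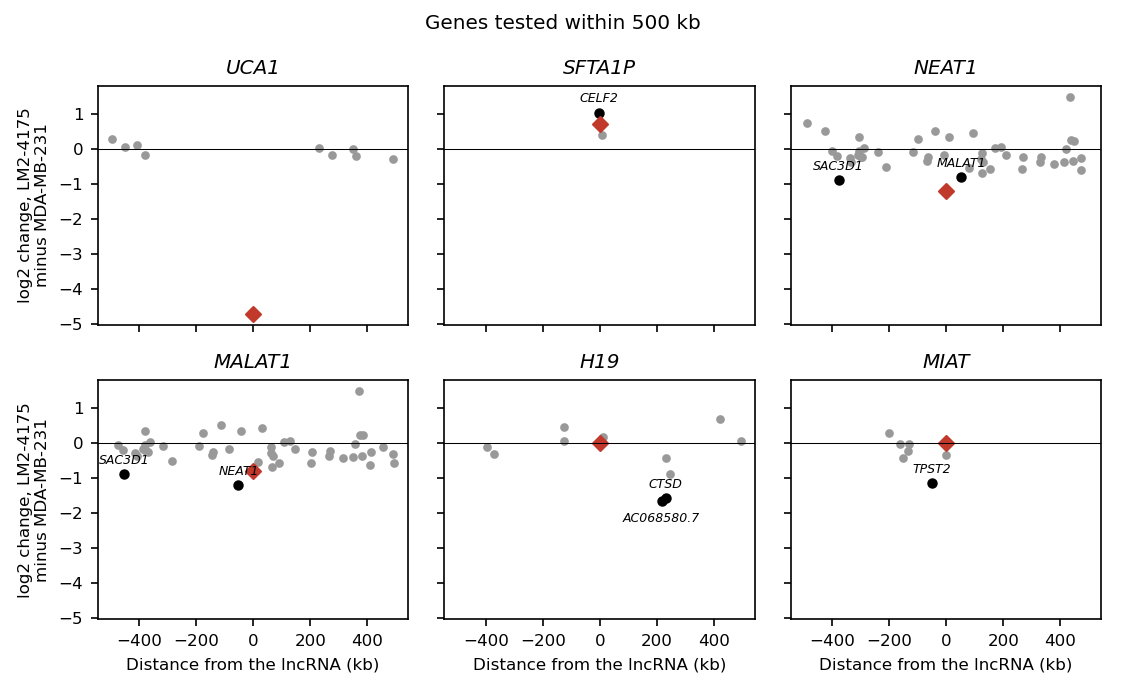
Log2 change (LM2-4175 minus MDA-MB-231) of genes tested within 500 kb of UCA1, SFTA1P, NEAT1, MALAT1, H19 and MIAT by distance in kb, with downstream as positive. Red diamonds are the lncRNA itself, black points are called genes and grey points the others. UCA1 at -4.71 stands apart from its tested neighbours, the nearest of which is 231 kb away, whereas CELF2 beside SFTA1P is at 1.03.

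GAS5 (ENSG00000234741, chr1:173827697-173838020, minus strand) was the highest of the 10 lncRNAs in both lines. It was at 149 FPKM in MDA-MB-231 (bounds 106 and 192) and 217 FPKM in LM2-4175 (bounds 155 and 279). The ratio of 1.45 was under 1.5-fold, the bounds overlapped, and the log2 change was 0.54. The snoRNA gene SNORD78 inside GAS5 was listed at 0 in both lines, and GAS5-AS1 was at 0.615 and 0.525 FPKM with bounds that reached 0. The nearest genes tested were RC3H1 upstream and CENPL downstream, neither of which was called, and of 9 neighbours 0 were called.

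Other host genes of snoRNAs were examined beside GAS5. Of 21 listed, 20 were found and 19 tested. Of the 19, 2 were called lower and 0 higher, compared with 7.38% of lncRNA genes tested called in either direction. The median log2 change of the 19 was 0.17. SNHG18 went from 7.02 FPKM (bounds 4.97 and 9.07) to 1.43 FPKM (bounds 0.866 and 2.00). SNHG11 went from 5.01 to 1.499 FPKM. SNHG5, named after its values were seen as the highest of the list, was at 324 and 386 FPKM with overlapping bounds.

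TUG1 (ENSG00000253352, chr22:31365231-31375381, plus strand) is typed as protein-coding in GENCODE 44, and was at 52.8 FPKM in MDA-MB-231 (bounds 33.3 and 72.3) and 52.6 FPKM in LM2-4175 (bounds 34.4 and 70.7). The ratio was 0.995, and the bounds allow 0.476 to 2.12. MORC2, which starts 0.471 kb upstream, was at 12.1 and 12.5 FPKM, and SMTN downstream at 36.6 and 54.6 FPKM, with overlapping bounds. Of 18 genes tested around TUG1, INPP5J was called higher (0.441 and 1.53 FPKM) and SEC14L6 lower (0.965 and 0.162 FPKM).

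PVT1 (ENSG00000249859, chr8:128806772-129199347, plus strand) was at 22.0 FPKM in MDA-MB-231 (bounds 11.5 and 32.6) and 16.6 FPKM in LM2-4175 (bounds 7.88 and 25.3), with a log2 change of -0.39. MYC, which encodes the transcription factor and lies 51.6 kb upstream, was at 63.5 and 72.2 FPKM. Neither was called, and the bounds of both overlapped between the lines. Of 3 genes tested near PVT1, 0 were called.

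H19 (ENSG00000130600, chr11:2016396-2025782, minus strand) was at 1.14 FPKM in both lines, where the bounds were 0.225 and 2.06 for the parental line and 0.0932 and 2.19 for LM2-4175. At this level the bounds allow ratios from 0.0453 to 9.73, so a change of several fold was not detectable. IGF2, the growth factor gene imprinted together with H19, was at 0.909 and 1.62 FPKM, and MRPL23 downstream at 60.3 and 68.0 FPKM, and neither was called. Of 11 genes tested around H19, 2 were called lower. CTSD, which encodes the lysosomal protease cathepsin D, went from 920.5 to 309 FPKM, and AC068580.7 beside it from 2.46 to 0.0896 FPKM.

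HOTAIR (ENSG00000228630, chr12:54356092-54368740, minus strand) was at 0.0658 FPKM in MDA-MB-231 and 0.0265 FPKM in LM2-4175, and MIAT (ENSG00000225783, chr22:27042375-27072438, plus strand) at 0.0137 and 0.0109 FPKM. All 4 lower bounds were 0, and both genes stayed out of the test for their low mean. HOTAIR had a higher level than 48.9% of the lncRNA genes above 0 in MDA-MB-231, and than 37.2% of those in LM2-4175. For MIAT these shares were 26.9% and 27.0%. Near HOTAIR, HOXC6 was listed at 0.490 and 1.29 FPKM and CALCOCO1 at 18.7 and 19.2 FPKM, and 0 of 16 genes tested were called. Near MIAT, TPST2, which encodes a tyrosylprotein sulfotransferase, went from 16.8 to 7.07 FPKM and was the 1 gene of 7 called lower.

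Genes of PRC2 and of the LSD1 complex, the described partners of HOTAIR, were examined beside it. Of 18 listed genes 16 were tested. Of the 16, 2 were called lower and 0 higher, compared with 9.27% of all genes tested called in either direction. The median log2 change of the 16 was -0.14. RBBP7, a histone-binding subunit, went from 195 to 81.9 FPKM, and PHF19, a reader protein of PRC2, from 118 to 50.7 FPKM. The catalytic subunit EZH2 was at 41.9 and 32.4 FPKM and was not called.

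Other lncRNAs known from cancer were compared in the same way. Of 71 listed, 66 were found and 31 tested. Of the 31, 1 was called higher and 0 lower, compared with 7.38% of lncRNA genes tested called in either direction. The median log2 change of the 31 was -0.05. LINC00707 was the called gene, at 0.585 FPKM (bounds 0.340 and 0.830) in MDA-MB-231 and 1.62 FPKM (bounds 1.08 and 2.16) in LM2-4175. Of the 30 genes not called, 4 were at least 1.5-fold higher and 4 at least 1.5-fold lower with overlapping bounds. LINC00460, HOXD-AS1 and LINC00152 were named from these after their values were seen. LINC00460 was at 0.941 FPKM (upper bound 1.62) and 3.18 FPKM (lower bound 1.55), and HOXD-AS1 at 5.91 FPKM (upper bound 8.57) and 11.4 FPKM (lower bound 7.26). LINC00152 was at 316 FPKM (lower bound 234) and 186 FPKM (upper bound 236).

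**Figure D4:**
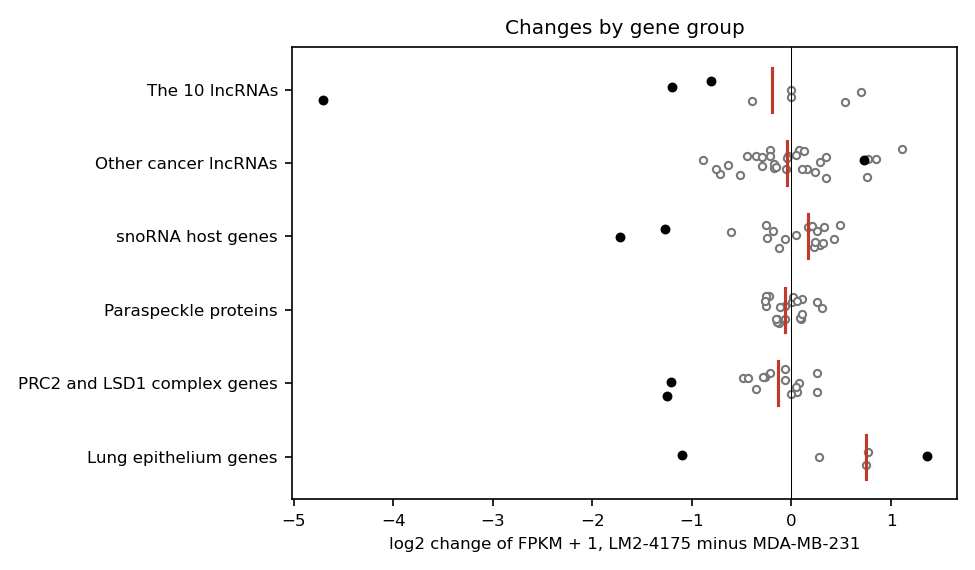
Log2 change of FPKM + 1 (LM2-4175 minus MDA-MB-231) of the genes tested in each group. Filled points were called, open points were not, and red lines are medians. UCA1 is the point at -4.71, and the medians of the other cancer lncRNAs, snoRNA host genes and paraspeckle protein genes are -0.05, 0.17 and -0.06.

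Ordered by FPKM, the 10 lncRNAs in MDA-MB-231 were GAS5, NEAT1, TUG1, SFTA1P, UCA1, PVT1, MALAT1, H19, HOTAIR and MIAT. In this order the bounds of neighbours did not overlap between NEAT1 and TUG1, between MALAT1 and H19, and between H19 and HOTAIR, and they overlapped in the other 6 pairs. In LM2-4175 the order was GAS5, SFTA1P, NEAT1, TUG1, PVT1, MALAT1, H19, UCA1, HOTAIR and MIAT. There the bounds of neighbours did not overlap between GAS5 and SFTA1P, between TUG1 and PVT1, and between MALAT1 and H19. The sum over the 10 lncRNAs was 456 FPKM in MDA-MB-231 and 425 FPKM in LM2-4175, or 0.0721% and 0.0710% of the FPKM of all genes.

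The labelled cell type was checked with marker genes. The mesenchymal genes VIM, CD44, CAV1, AXL, SPARC and MSN were all present in both lines at 13.6 FPKM or more, and of the epithelial and receptor genes expected to be low, ESR1 and PGR were at most 0.0331 FPKM and CDH1 was at 0.851 and 0.366 FPKM. The other two genes of that list were not near 0: ERBB2 was at 34.95 and 22.8 FPKM, and EPCAM at 12.3 and 4.93 FPKM, which was called lower in LM2-4175. The list summed to 48.1 FPKM in MDA-MB-231 and 28.1 FPKM in LM2-4175. CAV1 and SPARC differed between the lines, at 587 and 151 FPKM for CAV1 and 13.6 and 232 FPKM for SPARC. The 8 white blood cell genes summed to 4.61 and 2.81 FPKM, with CD3E among those listed at 0 in both lines, and the 3 red blood cell genes to 0.188 and 0.184 FPKM. Their part in the results was not tested.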

How the data were processed

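Total RNA of 2 libraries each of MDA-MB-231 and LM2-4175 was made into libraries with a TruSeq kit and sequenced. Per the labels, the submitters' processing notes name TopHat2, Cuffdiff and hg19. The authors deposited 1 FPKM per gene and cell line with bounds, which combine the libraries; how the libraries were scaled, whether the bounds cover the spread between them, whether strand was used and whether RNA was selected on poly(A) tails is not given in the sources used here. The table gives no depth per library, the read totals in the study's supplement were not used here, and the bounds, widest for low genes, stand for the precision. Whether the libraries came from separate cultures is not stated.

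The members and lists were chosen with earlier results of these data known. Changes are log2((LM2-4175 + 1)/(MDA-MB-231 + 1)) with a pseudocount of 1 FPKM. Genes whose status was OK for each line and whose mean was at least 0.5 FPKM were tested; a call needed at least 1.5-fold and bounds that did not overlap. Because 1 value per line exists, no p-value was calculated. Named are all 10 members, the called genes of each list (at most 5 each way), the 3 highest tested lung epithelium and paraspeckle genes, the called and nearest tested neighbours within 500 kb, and the 3 lncRNA genes most like UCA1 and SFTA1P; other names were chosen after their values were seen, and 3 genes that this rule or the marker lists hold are not reported here. Positions and gene types are from GENCODE 44 on GRCh37, matched by Ensembl ID for 55535 genes and not for 2280. Python 3.11.15, NumPy 2.4.6, pandas 2.3.3, Biopython 1.88 and Matplotlib 3.10.9 were used, and the call was tested on simulated data. In all, 11 alternatives were tried.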

Additional observations from a re-analysis of the deposited data

How the results depend on the processing

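No paired analysis was possible because the table holds 1 pooled value per cell line, and for the same reason leaving out each replicate was not run. Under the 11 alternatives UCA1 and NEAT1 were called lower in all, with log2 changes from -6.10 to -4.69 for UCA1 and from -1.21 to -1.12 for NEAT1. For members called at these levels, only the 2-fold cut, TPM and the median ratio set to 0 could remove the call. The other 8 alternatives loosen the rule or leave these genes tested, so a call kept in them adds nothing. MALAT1 was lost in all 3 that could remove it, namely at 2-fold, with TPM (-0.75) and with the median ratio set to 0 (-0.75). SFTA1P, the 1 member then called higher, was called with TPM (0.79), the fold alone and the standard errors taken from the bounds. The other members tested were called in none.

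With TPM, 2 other cancer lncRNAs were called higher. With a mean of at least 1, 1 neighbour was called higher. With a mean of at least 5, calls were 0 other cancer lncRNAs higher, 0 snoRNA host genes lower, 0 lung epithelium genes lower, 1 neighbour higher and 3 lower, 10 lncRNA genes higher and 9 lower, and 321 of all genes higher. Fewer genes are tested there. At 2-fold, calls were 0 other cancer lncRNAs higher, 1 neighbour higher and 3 lower, and 403 of all genes lower. With the fold alone, calls were 5 other cancer lncRNAs higher and 4 lower, 3 lung epithelium genes higher, 9 neighbours higher and 9 lower, 131 lncRNA genes higher and 130 lower, and 1434 of all genes higher and 1640 lower. With the standard errors, calls were 5 other cancer lncRNAs higher and 1 lower, 3 lung epithelium genes higher, 4 neighbours higher, 48 lncRNA genes lower and 1090 of all genes lower. The cause of these moves was not tested. Scaling with TPM moved log2 ratios without a pseudocount by 0.08, and with the pseudocount UCA1 was at -5.03. Low genes have the widest bounds, which limits what could be seen for H19, HOTAIR and MIAT.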
